A study of Homo sapiens with 6 samples.

Results

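This account covers 10 named noncoding RNAs, the snoRNA host genes SNHG1, SNHG5, SNHG6, SNHG7, SNHG8, SNHG9, SNHG12 and GAS5 and the nuclear long RNAs MALAT1 and NEAT1, in prometaphase cells with and without added Staufen1 (Stau1). They were chosen by name and not by their values. Rows of the table were taken where the identifier equalled one of these names, which gave 4 of the 37879 rows: SNHG5, SNHG8, GAS5 and MALAT1. The other 6 names matched no row and were not analysed under those names. An older name of SNHG5 (C6ORF160) and of NEAT1 (TNCRNA) did match a row, through the RefSeq synonyms. Those 2 rows lie outside the rule, were chosen after their values were seen, and are given beside the members.

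Total RNA was hybridised to 6 Illumina HumanWG-6 v3 bead arrays. All cells were HEK293T, an established human embryonic kidney line that carries the SV40 large T antigen, and all received nocodazole, a drug that depolymerises microtubules (50 ng/ml, 15 h), to arrest them in prometaphase. The 3 control samples were transfected with the empty vector, and the 3 Stau1 samples with plasmids coding for Stau155-FLAG, a tagged Stau1 isoform. The endogenous gene was present in both groups, and the labels do not say whether replicates were separate cultures, so p-values measure only the spread between these samples. In RNA from whole samples, fewer cells of a type and less RNA per cell cannot be told apart.

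A snoRNA host gene is transcribed as a long precursor whose introns hold small nucleolar RNAs (snoRNAs), which guide chemical modification of ribosomal RNA. The spliced exons left over are often short-lived, since many hosts have short reading frames that expose them to nonsense-mediated decay, and many begin with a pyrimidine tract (5′TOP) that couples them to the translation machinery. MALAT1 is retained in nuclear speckles, the stores of splicing factors, and NEAT1 is the scaffold of paraspeckles, and both kinds of body come apart in mitosis. Staufen1 binds double-stranded RNA and, together with UPF1, can target bound transcripts for decay.

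Transcript starts of 6 of the 8 member hosts are shown because a 5′TOP tract is a feature known for many snoRNA hosts, and those of SNHG6 and SNHG9 are not shown. Each line gives 30 bases around a transcript start that RefSeq annotates (GRCh38.p14), 10 before it and 20 from it on. Capitals mark a run that begins with C and goes on with at least 4 bases that are C or T, with the C nearest the start and at most 5 bases from it, on the transcript's strand.
SNHG5 (chr6:85678714-85678743, minus strand): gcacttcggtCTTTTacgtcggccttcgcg
SNHG8 (chr4:118278752-118278781, plus strand): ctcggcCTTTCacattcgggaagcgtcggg
SNHG7 (chr9:136728165-136728194, minus strand): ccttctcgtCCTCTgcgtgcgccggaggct
SNHG12 (chr1:28581854-28581883, minus strand): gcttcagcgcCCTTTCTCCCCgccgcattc
SNHG1 (chr11:62855866-62855895, minus strand): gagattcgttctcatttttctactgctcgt
GAS5 (chr1:173869026-173869055, minus strand): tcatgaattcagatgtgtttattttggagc

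The run was found in 4 of these 6 hosts: SNHG5 and SNHG12 begin on it, and SNHG7 and SNHG8 have it 1 and 4 bases before the annotated start. It was not found within that distance of the annotated start shown for SNHG1 or GAS5, and other starts of these genes were not read. Of 35116 annotated starts, 21.1% held it, and over 47 starts of 37 protein-coding snoRNA hosts 57.4% did. Among other noncoding hosts that were read, SNHG4 began on the run, and SNHG3, SNHG10 and SNHG11 did not hold it. MALAT1, which is not listed as a host, had it 4 bases before an annotated start and not at the other start read. These findings and shares describe the annotated starts and were not tested.

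Among the arrays, 33.6% to 35.6% of the rows had a detection p under 0.05, the share of negative control beads at or above the row's intensity. A row was kept for testing where this held on at least 3 arrays, which left 13285 rows. Markers of the labelled cells were read as a check: the HEK293 markers NEFL, NEFM and INA and 11 of 11 mitotic markers were detected on every array, PAX2 was detected on 1 control array, and 7 of 10 markers of fibroblasts, blood, liver and endothelium were detected on none. COL1A1, a collagen, and PECAM1, an endothelial marker, were detected on all 6. STAU1 itself had a normalized log2 intensity of 11.32 ± 0.10 (SD, n = 3) without and 11.47 ± 0.06 (SD, n = 3) with the plasmid (difference 0.15, SE 0.09, limma, adjusted p = 0.999). All 3 Stau1 arrays lay above all 3 controls for STAU1, as in 4.51% of all kept rows. The STAU1 row is a mean over several probes, and whether they read the plasmid transcript was not tested. By western blot, the paper showed the tagged protein at a lower level than endogenous Stau1. Control replicate 1 correlated least with the other arrays (Pearson's r of at most 0.991 across kept rows, which are not independent replicates).

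The 4 members fell into 3 kinds. SNHG5 was far above background on every array, SNHG8 lay just above it, and GAS5 and MALAT1 could not be told from it. The raw intensities, which the authors neither background-subtracted nor normalized, are given first.

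SNHG5 (chr6:85677007-85678733 in RefSeq) hosts 2 box C/D snoRNAs (SNORD50A and SNORD50B), neither of which had a row under its name. Among the controls (replicates 1, 2 and 3) its raw intensity was 5475, 6963 and 8204, and among the Stau1 arrays it was 6339, 7742 and 7610, or 68.3 to 88.5 times the mean background of the same array. The standard error over beads was 2.21% to 3.61% of the intensity, with 29 to 45 beads per array.

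SNHG8 (chr4:118278762-118279823), the host of SNORA24, had raw intensities of 98.4, 97.0 and 120.5 on the control arrays and 103.2, 123.0 and 123.2 on the Stau1 arrays, in the same order. That is 1.21 to 1.38 times the mean background. Its detection p ran from 0.00168 to 0.0149, but its fractional bead counts show a mean over several probes, for which the detection p is a combined value. In control replicates 1 and 2 its intensity was below that of the dimmest detected row of a single probe (103.7 and 103.8). The table gives no chromosome for SNHG8, and its description there names chromosome 3, while RefSeq places the gene on chromosome 4.

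GAS5 (chr1:173863901-173869045), a growth-arrest transcript that hosts a series of box C/D snoRNAs, was not detected on any array. Its raw intensity was 71.8, 76.8 and 98.3 in control and 71.9, 90.0 and 88.9 in Stau1 replicates 1, 2 and 3, with a detection p from 0.261 to 0.748. MALAT1 (chr11:65497738-65506516) was not detected either, at 76.7, 66.8 and 78.5 in control and 69.6, 93.1 and 80.8 in Stau1 replicates, with a detection p from 0.325 to 0.895. These intensities were 0.895 to 1.06 times the mean background for GAS5 and 0.837 to 1.02 times for MALAT1, so no difference between groups is given for either. The mature MALAT1 transcript has no poly(A) tail, and the labelling kit primes from poly(A). Whether the probe or the labelling limits these rows was not tested.

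**Figure D1:**
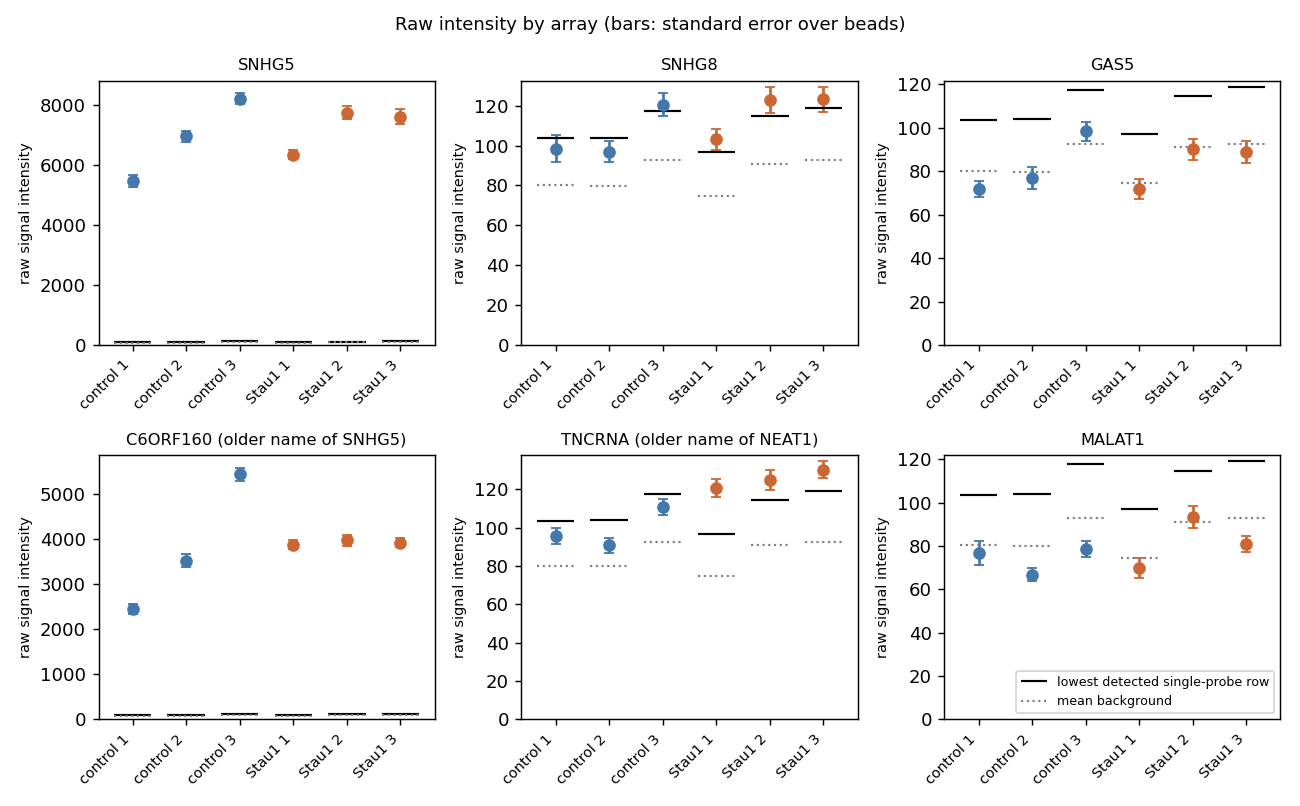
Raw signal intensity (vertical axis, arbitrary units, from 0) on each of the 6 arrays for the 4 member rows and the rows under older names, with control arrays in blue and Stau1 arrays in orange. Bars are the standard error over beads, black lines the dimmest detected single-probe row and dotted grey lines the mean background of that array. SNHG5 and C6ORF160 stand far above both lines, all 3 Stau1 points of TNCRNA lie above the black line and all 3 control points below it, and GAS5 and MALAT1 stay under the black line throughout.

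The question of the design is whether making Stau1 from a plasmid changes transcript levels in prometaphase. After background correction, quantile normalization and log2, the groups were compared with limma over all kept rows. Of the 2 members that were kept, SNHG5 and SNHG8, 0 passed an adjusted p of 0.05 and 0 had an unadjusted p under 0.05 in limma. Over all kept rows 0% passed, and at an unadjusted p under 0.05 there were 2.41% higher and 1.32% lower with Stau1. The methods' t-test gave SNHG8 an unadjusted p under 0.05, as it did 3.48% of all kept rows in either direction, and passed no member after adjustment.

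SNHG5 did not differ detectably. Its normalized log2 intensity was 12.74, 12.85 and 12.71 on the control arrays (replicates 1, 2 and 3) against 12.73, 12.80 and 12.80 on the Stau1 arrays. The groups overlapped, with both the highest and the lowest array among the controls. The difference was 0.0088 (SE 0.08, limma, adjusted p = 0.999). Permuting the arrays exactly, two-sided, returned p = 0.9. The 95% interval of the difference ran from -0.16 to 0.18, that is from 0.894-fold to 1.13-fold. Normalization narrowed the span of the arrays from 1.498-fold in raw intensity to 1.11-fold.

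The row under its older name, C6ORF160 (a predicted transcript variant in the table), did not differ detectably either. It was 11.60, 11.89 and 12.07 in control and 11.996, 11.83 and 11.81 in Stau1 replicates 1, 2 and 3 in normalized log2 intensity. All 3 Stau1 arrays lay between control replicates 1 and 3. The difference was 0.02 (SE 0.12, limma, adjusted p = 0.999), with a 95% interval from -0.23 to 0.27. The rows differed in how they placed the controls: control replicate 3 was the lowest control for SNHG5 and the highest for C6ORF160, and the SD among controls was 0.08 and 0.24.

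SNHG8 was 5.29, 5.25 and 5.41 in control and 5.55, 5.56 and 5.53 in Stau1 replicates 1, 2 and 3 in normalized log2 intensity. All 3 Stau1 arrays lay above all 3 controls, and the Stau1 arrays lay close together, so that the control mean was 5.32 ± 0.08 (SD, n = 3) and the Stau1 mean 5.54 ± 0.02 (SD, n = 3). The difference was 0.23 (SE 0.13) and did not pass (limma, adjusted p = 0.999, unadjusted p = 0.102). In the exact permutation test p was 0.1, which is as low as 3 arrays against 3 can go. Its 95% interval, from -0.05 to 0.51, holds 0. Groups that did not overlap were found in 4.51% of all kept rows with Stau1 higher and in 3.40% with Stau1 lower, and 1 of the 2 kept members is too few to read against that. The size depended on the processing at this low signal: it was 0.01 when the background was inferred from all rows and 0.12 when none was removed. On a generalised log scale with cyclic loess it was 0.41, and with cyclic loess alone 0.21.

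NEAT1 (chr11:65422798-65445540) was read only under the name TNCRNA. Its raw intensity was 95.8, 90.8 and 110.9 in control and 120.9, 124.7 and 130.3 in Stau1 replicates 1, 2 and 3, with a detection p from 0.0764 to 0.130 in control and from 0.0158 to 0.0277 in Stau1 arrays. It was thus detected on all 3 Stau1 arrays and on 0 of 3 control arrays, and it was kept only through the group in which it was higher. In normalized log2 intensity it was 5.22, 5.09 and 5.20 on the control arrays against 6.01, 5.60 and 5.71 on the Stau1 arrays. The groups did not overlap, as in 4.51% of all kept rows with Stau1 higher. TNCRNA was chosen after its values were seen, so the lack of overlap is a description only. Since the control arrays give only a bound, control values were raised to the dimmest detected single-probe row of each array. Their mean was then 5.41, against a measured 5.17. Set against 5.41, the Stau1 mean of 5.77 was at least 1.28-fold higher on this background-corrected scale, and no test was run on it. That bound holds for this background only: the raw means were 125 and 99.2, and the difference in log2 intensity was 0.31 with no background removed and 0.03 where all rows served to infer it.

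The measured TNCRNA means differed by 0.60, a description only, since the detection filter kept the row through its high group. Leaving out 1 array gave 0.49 (without Stau1 replicate 1) to 0.69 (without Stau1 replicate 2). The difference was 0.58 with cyclic loess and 1.09 on a generalised log scale with cyclic loess.

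**Figure D2:**
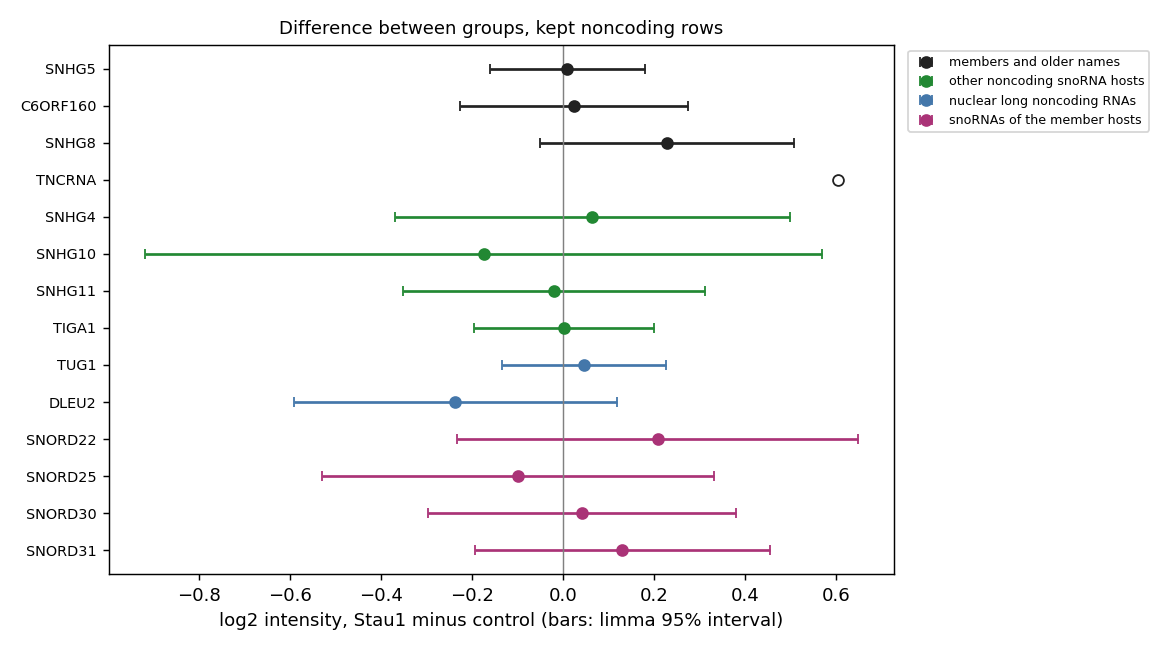
Difference in normalized log2 intensity, Stau1 minus control (horizontal axis), for the kept rows among the members and their older names, other noncoding snoRNA hosts, other nuclear long RNAs and snoRNAs of the member hosts. Points are limma estimates over 3 arrays against 3 and bars their 95% intervals. SNHG5 sits at 0.0088 with the narrowest bar among the members, SNHG8 at 0.23 with a bar that crosses 0, and TNCRNA, an open point with no bar because no control array detected it, at 0.60.

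Other noncoding snoRNA hosts were read from a list of 10, of which 5 had a row and 4 were kept. None passed (limma, lowest adjusted p = 0.999), 2 were higher and 2 lower, and their median difference was -0.01, beside -0.0021 over all kept rows. SNHG4 differed by 0.06 (SE 0.20) and TIGA1, an older name of EPB41L4A-AS1, by 0.00091 (SE 0.09). SNHG10 had the widest spread. On the control arrays it was 7.53, 6.41 and 5.65, and on the Stau1 arrays 6.02, 6.59 and 6.44, so that the controls alone spanned the Stau1 arrays and the difference of -0.18 had an interval from -0.92 to 0.57. SNHG11 differed by -0.02 (SE 0.15), and SNHG3 was detected on 1 control array and was not kept.

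The snoRNAs in the introns of the member hosts were represented by 7 of 29, all from SNHG1, whose own row was not analysed under that name. SNORD22, SNORD25, SNORD30 and SNORD31 were kept, and SNORD26, SNORD27 and SNORD28 were detected on no array. The 4 kept rows differed by 0.21 (SE 0.20), -0.10 (SE 0.20), 0.04 (SE 0.16) and 0.13 (SE 0.15), and 0 passed in limma (unadjusted count 0). Their groups overlapped in every case. SNORD25 was 6.78, 6.61 and 6.72 in control and 6.10, 6.91 and 6.80 in Stau1 replicates 1, 2 and 3, with Stau1 replicate 1 the lowest array. Mature snoRNAs carry no poly(A) tail, and whether these rows read the snoRNA or its precursor was not tested.

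Protein-coding genes can host snoRNAs too, among them genes of ribosomal proteins, elongation factors and the nucleolar protein nucleolin (NCL). Of 48 such genes 47 had a row and 45 were kept, each detected on every array. None passed in limma and 0 had an unadjusted p under 0.05. Of the kept genes 21 lay higher and 24 lower with Stau1, with a median difference of -0.0022. The largest differences were EIF3A, a translation initiation subunit, at 0.31 (SE 0.16) and NCL at 0.19 (SE 0.14) on the upper side, and RPL4 at -0.18 (SE 0.08) and RPS13 at -0.13 (SE 0.08) on the lower. No gene of this list had groups that did not overlap. RPL10 was detected on no array, and PTCD3 was not kept either.

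Other nuclear long noncoding RNAs were represented by 5 of 8. TUG1 was detected on every array, at 12.28, 12.31 and 12.28 in control and 12.28, 12.45 and 12.27 in Stau1 replicates 1, 2 and 3, and differed by 0.05 (SE 0.08, limma, adjusted p = 0.999). DLEU2 differed by -0.24 (SE 0.16) and its groups overlapped. MEG3, H19 and MIAT were detected on no array.

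The proteins of the nuclear bodies that hold NEAT1 and MALAT1 were compared in the same fit. All 10 paraspeckle proteins with a row were kept, 0 passed in limma (unadjusted count 0), and their median difference was 0.02. NONO, a core paraspeckle protein, differed by 0.05 (SE 0.08), the highest difference was that of SFPQ (0.29, SE 0.26), and CPSF6 (-0.19, SE 0.18) and PSPC1 (-0.09, SE 0.12) were the lowest. SFPQ was 6.75 in control replicate 1 and between 7.61 and 8.12 on the other 5 arrays.

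All 10 nuclear speckle proteins with a row were kept and 0 passed in limma after adjustment. At an unadjusted p under 0.05, 2 were higher and 0 lower: SRRM2, a scaffold of speckles, by 0.45 (SE 0.09) and SON, another scaffold, by 0.26 (SE 0.12), and both had groups that did not overlap. Over all kept rows 2.41% lay higher at that p and 4.51% lay higher without overlap, and 2 genes are too few to read against these shares. SFRS7 (-0.23, SE 0.10) and SFRS3 (-0.16, SE 0.12), both SR splicing factors, lay at the lower end, and the median of the list was 0.07. Of the 11 mitotic markers 0 passed after adjustment, 4 lay higher and 7 lower, and their median difference was -0.01. BUB1B lay highest (0.25, SE 0.17). At an unadjusted p under 0.05, 2 lay lower and 0 higher: TOP2A (-0.41, SE 0.15) and CENPF (-0.36, SE 0.15). Over all kept rows 1.32% lay lower at that p, and 2 genes are too few to read against this share. Whether any of these genes bear on the members was not tested.

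**Figure D3:**
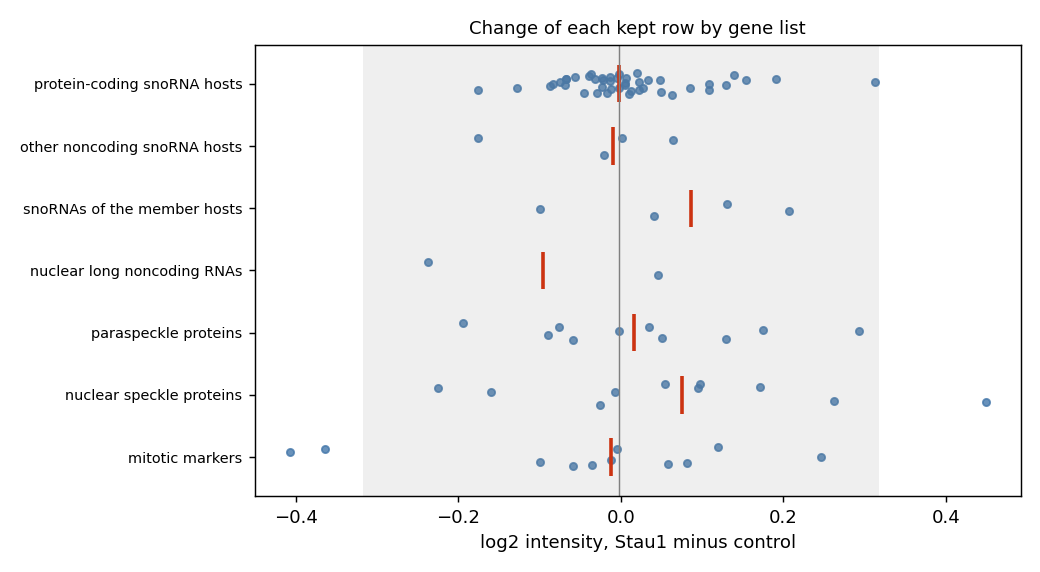
Difference in normalized log2 intensity, Stau1 minus control (horizontal axis), of each kept row in 7 gene lists, 1 point a row with a small random vertical shift. Red bars are list medians, the grey line the median over all kept rows, and the grey band holds 95% of all kept rows (within 0.32 of 0). The 45 protein-coding hosts gather about a median of -0.0022, and SRRM2 at 0.45, TOP2A at -0.41 and CENPF at -0.36 lie outside the band.

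The rows most like the kept hosts were found by the root mean square difference, over the 6 arrays, between row-centred log2 values and the mean profile of SNHG5 and SNHG8. They were CRKL (0.019), PDCD4 (0.020), GPBAR1 (0.023), MAX (0.023) and PILRA (0.027), against a median of 0.161 over the kept rows. The profile itself varied by only 0.062 about its mean. Its difference between groups came almost wholly from SNHG8, near background, at 0.23, against 0.0088 for SNHG5. The named rows differed by 0.12 (MAX) to 0.15 (PILRA) between groups, so the likeness largely follows that difference and is no separate result. Neither nuclear long RNA was kept under its own name, so none was sought for them.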

How the data were processed

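The deposited table was a BeadStudio gene profile, 1 row a gene, with no normalization by the authors. Per the file headers it gives a raw signal intensity, a detection p-value, a standard error over beads and a mean number of beads, which is a plain number as deposited. Each value column belonged to 1 of the 6 samples. The table names no genome build. Intensities were corrected with normexp (offset 16), the background being inferred from the detection p of the 30932 rows of 1 probe (whole bead counts, detection p in steps of 1 in 759 to a tolerance of 0.002), then quantile normalized and log2 transformed (limma 3.58.1, R 4.3.3). The filter kept rows detected (p under 0.05) on 3 or more arrays. Groups were compared with lmFit and eBayes with a variance trend, two-sided, and p-values were adjusted by Benjamini-Hochberg across 13285 rows. The fit was tested on simulated data. The methods' t-test was run as two-sided with equal variances. The study names a t-test, without its form, for immunoprecipitated RNA and none for this comparison. For this comparison it did report a few probes changed more than 2-fold at a p under 0.05. Those were single probes rather than gene rows, and no adjustment was stated. Members and lists were chosen with earlier results of these data known. From each list of related genes the 2 kept rows with the largest and the 2 with the smallest difference are named, where the list holds enough, and other rows named were chosen after their values were seen. Some rows of the lists are not reported here. Start sequences came from a RefSeq table of GRCh38.p14, without those of chromosome 8. Array number, bead number and signal over background limit the precision. Figures were drawn with matplotlib 3.10.9.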

Additional observations from a re-analysis of the deposited data

How the results depend on the processing

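No member passed under any alternative run, and neither did C6ORF160. Of the kept members SNHG8 stayed higher with Stau1, from 0.0110 (background from all rows) to 0.413 (generalised log with cyclic loess) with all arrays and from 0.194 to 0.275 with 1 array left out (adjusted p from 0.448 to 1). TNCRNA ran from 0.0299 to 1.09 and, with 1 array left out, from 0.485 to 0.691. These TNCRNA values are a description only, since no control array detected the row, and no test is read from them. The sign of SNHG5, near 0, turned with a generalised log with cyclic loess (-0.000231) and with array weights (-0.00668). Leaving out 1 array gave -0.0212 to 0.0510, below 0 without control replicate 1 or 3 or Stau1 replicate 2 or 3. C6ORF160 turned with array weights (-0.0423), and its values with an array removed lay between -0.105 and 0.135, below 0 without control replicate 1 or Stau1 replicate 1. The cause was not tested. Median scaling moved the median difference of all kept rows from -0.0021 to 0.0679 and SNHG5 to 0.0819, little beyond that shift. A detection p under 0.01 on all arrays removed SNHG8 and TNCRNA and gave no value for them. The count of rows called over all kept rows was 0 with all arrays and ran from 0 to 39 with 1 left out, 39 without control replicate 3. Same-numbered arrays did not all deviate together (correlations of 0.02, 0.26 and -0.14 for replicates 1, 2 and 3 across kept rows). No pairing was assumed, and whether replicate 2 was paired was not tested. With the replicate block limma called 0 rows after adjustment, and SNHG8 differed by 0.228 (adjusted p = 0.985). At an unadjusted p under 0.05 limma gave 605 rows with the block and 496 without it. Signal over background limits SNHG8, TNCRNA, GAS5 and MALAT1. The rows under older names were added after the data were seen.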

Other observations

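The 5 other noncoding hosts with a row did not place the controls alike. SNHG10 and SNHG4 were highest in control replicate 1 and lowest in control replicate 3, at 7.53 and 5.65 for SNHG10 and 7.53 and 6.65 for SNHG4 in normalized log2 intensity. TIGA1 was lowest in control replicate 1 (12.24) and highest in control replicate 3 (12.52), and SNHG11 was 8.95, 8.40 and 8.88 in control replicates 1, 2 and 3. SNHG3 was detected on 1 array, so its order is not read. C6ORF160 was lower in control replicate 1 than in control replicate 3, at 11.60 in control replicate 1 and 12.07 in control replicate 3, as were SFPQ (6.75 and 8.12) and EIF3A (10.29 and 10.98). SNHG5 differed little between these arrays, at 12.74 and 12.71. The SD of the kept other noncoding hosts had a median of 0.37 in control and 0.08 in Stau1 arrays, beside 0.17 and 0.12 over all kept rows. These rows were chosen after their values were seen, and no test was run on the pattern.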
